A study of Mus musculus with 9 samples.

Results

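Mast cell granule proteases and their packaging proteoglycan were followed through 9 RNA-seq libraries of sorted intestinal stem cells from the mouse small intestine. The set holds 9 genes of the 57180 in the count table: the chymase family genes Cma1, Mcpt1, Mcpt2 and Mcpt4, the tryptases Tpsb2 and Tpsab1, the carboxypeptidase Cpa3, granzyme B (Gzmb) and serglycin (Srgn). They were chosen by name as known granule genes, with their high counts in the knockout libraries already known. Their levels and fold differences below are therefore a description and carry no test.

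All mice carried Lgr5-EGFP-CreERT2, an allele in which the promoter of the stem cell gene Lgr5 drives both EGFP, a green fluorescent marker, and CreERT2, a Cre recombinase that acts once tamoxifen is given, together with loxP-flanked Kansl1 (Kansl1 f/f). Kansl1 encodes the scaffold of the NSL histone acetyltransferase complex. Controls (labelled KANSL1-WT) received corn oil, and the KO groups (KANSL1-KO) received tamoxifen daily for 3 days (KO day 3) or 4 days (KO day 4). GFP+ cells were sorted, and each group had 3 libraries. Cre was thus driven in Lgr5-expressing cells, the controls carried the same alleles without tamoxifen, and the effects of tamoxifen and of the deletion cannot be told apart. The sources used here do not give the strain or age of the mice or whether replicates came from separate animals. The p-values below therefore set group differences against the spread of these samples only, and that spread may be technical.

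Mast cells are tissue-resident immune cells that store proteases in secretory granules and release them when IgE bound to the high-affinity Fc receptor is cross-linked. The chymases, tryptases and carboxypeptidase are kept in the granule bound to serglycin, whose sulphated glycosaminoglycan chains are heparin or chondroitin sulphate. In mice the mucosal mast cells of the gut epithelium are known for Mcpt1 and Mcpt2, while connective tissue mast cells are known for Mcpt4, Cma1, Tpsb2 and Cpa3.

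Total counts were 12164479 to 17913787 in controls, 8400458 to 21484679 on KO day 3 and 11174583 to 16943055 on KO day 4. Mitochondrial transcripts took 16.4 to 25.8% of counts in controls, 19.0 to 32.4% on KO day 3 and 66.9 to 72.1% on KO day 4, so nuclear genes had 9815192 to 13732680, 6615940 to 14300487 and 2556401 to 4754128 counts. Levels are given as CPM, the counts of a gene divided by the nuclear counts of the library and scaled to 1000000. KO day 3 replicate 1 correlated with its group at 0.91 (log scale, across genes), against 0.97 for the other pair, and KO day 4 replicate 3 at 0.86, against 0.92. Kansl1 itself was at 8.95, 25.0 and 22.3 CPM in control replicates 1, 2 and 3, at 4.99, 5.64 and 5.03 on KO day 3, and at 5.26, 9.28 and 15.6 on KO day 4. Among the libraries labelled KO day 4, replicates 2 and 3 lay within the control range. The labels do not name the floxed exons, so a count over the whole gene is no check of the deletion, and groups are named as the labels name them. Stem cell markers (Lgr5, Olfm4, Ascl2, Smoc2, Slc12a2 and Axin2) had counts in every library.

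Of the 9 genes, 5 lie on chromosome 14 (GRCm38): Cma1 at 55941451 to 55944675 (minus strand), Mcpt1 at 56017971 to 56020384 (plus), Mcpt2 at 56042041 to 56044642 (plus), Mcpt4 at 56059629 to 56062313 (minus) and Gzmb at 56258838 to 56262260 (minus). The tryptases are neighbours on chromosome 17, Tpsab1 at 25343245 to 25345562 (minus) and Tpsb2 at 25366305 to 25369098 (plus). Cpa3 is on chromosome 3 at 20215620 to 20242181 (minus) and Srgn on chromosome 10 at 62493833 to 62527451 (minus). The microRNA gene Mir7007 lies inside Cpa3 on the same strand; no other annotated gene overlapped a member.

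GATA transcription factors, which bind GATA sequences, are known regulators of mast cell protease genes. RefSeq promoter windows (GRCm38.p6) were found for 6 of the 9 members: Cpa3, Srgn, Cma1, Mcpt1, Mcpt4 and Gzmb. The letters GATAA, on either strand, occurred in the 250 bases before the start of Cpa3, Mcpt1, Mcpt4 and Cma1, and in 22.6% of the 32851 windows of this length in the table. The 150 bases before the start are shown for the 3 members that hold the motif there, 5′ to 3′ on the gene's strand, with GATAA in capitals. They let the starts of Mcpt1 and Mcpt4 be compared letter by letter.
Cpa3, chr3:20242182-20242331, minus strand: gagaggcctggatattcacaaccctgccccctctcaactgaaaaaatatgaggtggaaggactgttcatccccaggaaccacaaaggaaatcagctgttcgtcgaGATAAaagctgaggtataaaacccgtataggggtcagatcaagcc
Mcpt1, chr14:56017814-56017963, plus strand: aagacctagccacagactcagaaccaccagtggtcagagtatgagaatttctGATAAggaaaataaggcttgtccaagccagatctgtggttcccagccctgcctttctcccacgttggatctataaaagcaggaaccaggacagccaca
Mcpt4, chr14:56062311-56062460, minus strand: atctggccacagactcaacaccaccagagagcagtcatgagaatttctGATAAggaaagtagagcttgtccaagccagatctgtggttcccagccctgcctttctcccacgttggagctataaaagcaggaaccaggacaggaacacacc
The Mcpt1 and Mcpt4 windows were identical at 131 of 154 aligned columns (85.1%), against 43.1 to 50.6% for every other pair of members aligned. Each member entered with 1 window. The window at a further Srgn start, 19694 bases from the GENCODE gene start, was not aligned. The motif began at position -98 in Mcpt1, -102 in Mcpt4 and -45 in Cpa3, counted from the transcription start. A match of letters is a description of the sequence and not evidence of binding.

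In each control library the 9 genes together had at most 0.778 CPM, and in the KO libraries they stood at 19.5 to 1344 CPM. The summed level was 0.778, 0.437 and 0.204 CPM in control replicates 1, 2 and 3, from 18 counts in all. It was 193, 19.5 and 56.6 CPM on KO day 3 and 466, 911 and 1344 CPM on KO day 4. On this scale the groups did not overlap, and every KO day 4 library lay above every KO day 3 library. The means were 0.473 ± 0.289, 89.7 ± 91.5 and 907 ± 439 CPM (SD, n = 3). Pooled over libraries, the ratio to control was 142 on KO day 3 (95% exact counting interval 89.6 to 240) and 1653 on KO day 4 (1045.3 to 2790), and KO day 4 was 11.7 times KO day 3 (11.1 to 12.2). These intervals, and all others below, cover counting error only; the libraries of KO day 3 differed from each other by 9.93 times and those of KO day 4 by 2.88 times. In bulk libraries, fewer or more cells of a type and less or more RNA per cell cannot be told apart.

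The size of the KO day 4 level rested on the scale. Scaled to all counts, mitochondrial ones included, it was 223 CPM, against 67.5 CPM on KO day 3. On that scale the KO groups overlapped, with 12.6 to 152 CPM on KO day 3 and 131 to 308 CPM on KO day 4. Scaled to the library size corrected by TMM (trimmed mean of M values, a correction for library composition), the KO day 4 level was 510 CPM. The KO day 3 level on the TMM scale was 49.3 CPM and the control level 0.225 CPM. The KO groups did not overlap there, with 10.3 to 109 CPM on KO day 3 and 260 to 770 CPM on KO day 4. The ratios above, and the ratios and overlaps of single genes below, are on nuclear counts. Leaving out KO day 3 replicate 1, the highest of its group, gave a KO day 3 mean of 38.0 CPM, and leaving out KO day 4 replicate 3 gave a KO day 4 mean of 688 CPM.

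**Figure D1:**
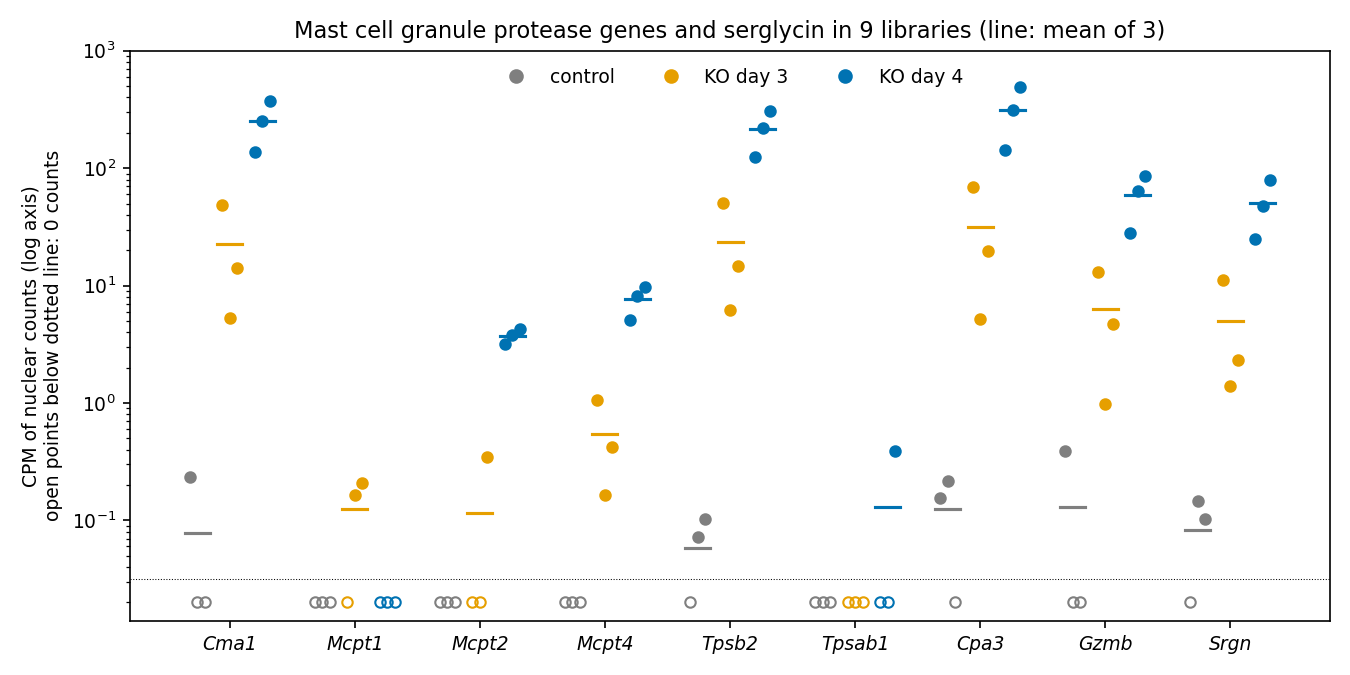
CPM of nuclear counts (log axis) of each of the 9 genes in each library; points are libraries, lines are the means of 3, and open points below the dotted line are libraries with 0 counts. Cma1, Cpa3, Tpsb2, Gzmb and Srgn have every KO day 3 library above every control and every KO day 4 library above every KO day 3 library, while Tpsab1 has 1 count in all and Mcpt1 has counts in 2 KO day 3 libraries only.

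Cpa3, carboxypeptidase A3, which trims C-terminal residues from peptides, was the member with most counts. It had 2, 3 and 0 counts in the controls, 455, 64 and 283 on KO day 3 and 678, 1081 and 1244 on KO day 4. In CPM this was 68.8, 5.23 and 19.8 on KO day 3 and 143, 313 and 487 on KO day 4, against at most 0.218 in a control. No group overlapped another. The ratio to control was 176 on KO day 3 (75.2 to 544) and 2032 on KO day 4 (870 to 6262), with a group mean of 314 ± 172 CPM on KO day 4 (SD, n = 3).

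Cma1, the mouse gene of the alpha-chymase type, had 3, 0 and 0 counts in the controls. It had 322, 65 and 203 counts on KO day 3 (48.7, 5.32 and 14.2 CPM) and 656, 874 and 950 on KO day 4 (138, 253 and 372 CPM). The groups did not overlap. The ratio to control was 216 on KO day 3 (73.5 to 1050.4) and 2797 on KO day 4 (956 to 13571). With 3 counts in the controls, these intervals are wide.

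Mcpt4, the beta-chymase of connective tissue mast cells, had no count in any control. It had 7, 2 and 6 counts on KO day 3 and 24, 28 and 25 on KO day 4, that is 1.06, 0.164 and 0.420 and then 5.05, 8.12 and 9.78 CPM. The groups did not overlap. Against a floor of 3 counts over the control group, it was at least 5.49-fold higher on KO day 3 and at least 86.8-fold higher on KO day 4. Bounds of this kind, here and below, take the KO counts as observed and leave out their counting error. The KO day 4 level of Mcpt4 was 15.8 times that of KO day 3 (9.02 to 29.6).

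The mucosal chymase genes Mcpt1 and Mcpt2 had few counts. Mcpt2 had none in the controls, 0, 0 and 5 on KO day 3 and 15, 13 and 11 on KO day 4 (3.16, 3.77 and 4.30 CPM). Its KO day 4 libraries lay above all others, while on KO day 3 a pair of libraries were at 0 like the controls. It was at least 1.83-fold higher on KO day 3 and at least 44.0-fold higher on KO day 4 than the floor of the controls, and KO day 4 was 24.0 times KO day 3 (9.46 to 78.1). Mcpt1 had counts only on KO day 3, with 0, 2 and 3, at least 1.83-fold the floor of the controls. On KO day 4 it had none, which allows up to 0.279 CPM over the group, and its ratio to KO day 3 had an upper bound of 3.36, so a difference between these times was not detectable at this depth. Mcpt1 was at or under the floor in both the controls and KO day 4, so no fold is given there.

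Tpsb2, a mast cell tryptase that forms a heparin-stabilised tetramer, had 0, 1 and 1 counts in the controls, 333, 76 and 209 on KO day 3 and 592, 758 and 783 on KO day 4. This was 50.3, 6.21 and 14.6 CPM on KO day 3 and 125, 219.7 and 306 CPM on KO day 4. The groups did not overlap. The ratio to control was 339 on KO day 3 (93.5 to 2808) and 3608 on KO day 4 (998 to 29812). Its neighbour Tpsab1, the other tetrameric tryptase, had 1 count, in KO day 4 replicate 3, and none in the other 8 libraries. The closest alignment of their transcripts was 76.9% identical over 838 bases with a longest identical run of 39 bases. The sources used here give no read length.

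Gzmb, granzyme B, an aspartate-cleaving protease of cytotoxic lymphocytes that mast cells can also make, had 5, 0 and 0 counts in the controls. It had 87, 12 and 67 on KO day 3 (13.2, 0.981 and 4.69 CPM) and 134, 222 and 219 on KO day 4 (28.2, 64.4 and 85.7 CPM). The groups did not overlap. The ratio to control was 36.5 on KO day 3 (15.3 to 114) and 389 on KO day 4 (166 to 1203).

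Srgn, the serglycin core protein made by many blood-derived cells, had 0, 2 and 1 counts in the controls. It had 74, 17 and 33 on KO day 3 (11.2, 1.39 and 2.31 CPM) and 118, 165 and 204 on KO day 4 (24.8, 47.8 and 79.8 CPM). The groups did not overlap. The ratio to control was 45.4 on KO day 3 (15.2 to 223) and 549 on KO day 4 (187 to 2672).

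Counted over the set by CPM of nuclear counts, every KO library lay above every control for 6 of the 9 genes on KO day 3 and for 7 of the 9 on KO day 4. Among the 13405 genes that passed the filter on low counts (which 7 of the 9 members passed, all but Tpsab1 and Mcpt1), 4.97% and 13.2% did so. For 7 of the 9, every KO day 4 library also lay above every KO day 3 library, against 13.5% of all tested genes. Because the members were chosen with these values known, nothing is read from the difference.

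Cma1, Cpa3 and Tpsb2 took most of the summed member signal in every KO library. Expressed per kilobase of exon and as a percent of the 9 genes, Cma1 was 33.3 ± 1.63% on KO day 3 and 36.2 ± 1.20% on KO day 4 (SD, n = 3), the highest mean at both times. Cpa3 was 30.1 ± 4.52% and 30.9 ± 2.77%, and Tpsb2 was 24.6 ± 3.05% and 21.4 ± 1.63%. Cma1 and Cpa3 overlapped in range on KO day 3 (32.2 to 35.2% against 24.9 to 33.1%), so their order there is within the spread. Gzmb was 6.56 ± 1.57% and 6.29 ± 0.520%, Srgn was 3.63 ± 0.990% and 3.48 ± 0.250%, and Mcpt4 was 0.900 ± 0.186% and 1.13 ± 0.217%. Cma1, Cpa3 and Tpsb2 together made up 88.9, 88.3 and 87.1% on KO day 3 and 88.6, 88.2 and 88.7% on KO day 4. Over the 6 KO libraries Tpsb2 ran from 19.96 to 28.1%, Gzmb from 4.93 to 8.06%, Srgn from 2.597 to 4.57% and Mcpt2 from 0 to 0.882%.

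**Figure D2:**
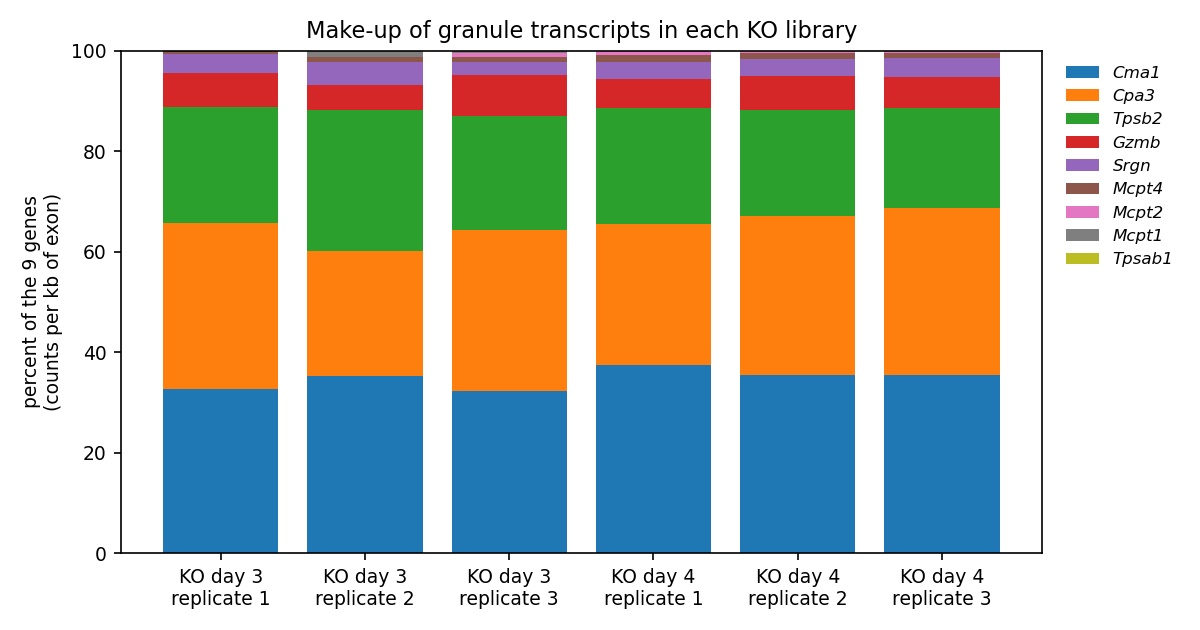
Percent of the summed counts per kilobase of exon of the 9 genes that each gene contributed, 1 bar per KO library. Cma1, Cpa3 and Tpsb2 take 87.1 to 88.9% of every bar, and the summed level of these libraries runs from 19.5 to 1344 CPM.

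The mean level per kilobase on KO day 4 ran from 233 CPM per kb for Cma1 through 207 for Cpa3, 136 for Tpsb2, 41.4 for Gzmb, 23.1 for Srgn and 6.90 for Mcpt4 to 3.53 for Mcpt2. Exon lengths are unions over all annotated isoforms, which lowers the value of genes with many isoforms. Within a library the ratio of Gzmb to Cpa3 was 19.1, 18.8 and 23.7 Gzmb counts per 100 Cpa3 counts on KO day 3 and 19.8, 20.5 and 17.6 on KO day 4. For Srgn it was 16.3, 26.6 and 11.7, then 17.4, 15.3 and 16.4. Mast cell tryptase and chymase counts per 100 Cpa3 counts were highest in KO day 3 replicate 2, at 119 for Tpsb2 (84.0 to 168) and 102 for Cma1 (70.8 to 146), the library with the fewest Cpa3 counts. In the other 5 KO libraries they ran from 62.9 to 87.3 for Tpsb2 and from 70.8 to 96.8 for Cma1.

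Markers of mast cells that are not granule proteases were higher in the same libraries. Fcer1a, the alpha chain of the IgE receptor, had no count in the controls, 84, 33 and 90 on KO day 3 and 272, 365 and 397 on KO day 4. The list of Kit, Fcer1a, Ms4a2, Il1rl1, Mrgprb1 and Cd200r3 summed to 11.7 to 14.9 CPM in controls, 20.9 to 61.8 on KO day 3 and 194 to 559 on KO day 4. In controls 476 of its 477 counts were of Kit, the stem cell factor receptor. Mrgprb1, a receptor of connective tissue mast cells, was at 0 counts in all 9 libraries. Within each KO group the libraries stood in the same order for this list as for the 9 granule genes.

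Marker lists of other cell types are given beside the members as measured values, and their part in the member levels was not tested. The 11 T and NK cell markers summed to 0.0728 to 0.934 CPM in controls, 0 to 1.75 on KO day 3 and 0.290 to 2.74 on KO day 4, with Prf1 (perforin, the usual partner of granzyme B) and Nkg7 at 0 in all libraries. The 3 basophil markers, 1 of which (Cd200r3) is also in the mast cell list, were at 0 in controls, 0.0818 to 0.907 CPM on KO day 3 and 7.57 to 21.1 on KO day 4. The 9 macrophage and neutrophil markers were at 2.77 to 4.51, 2.80 to 9.98 and 8.99 to 22.3 CPM, with S100a8, S100a9 and Ly6g at 0 in all libraries. The 7 platelet and endothelial markers, types known to express Srgn, were at 0 to 0.611, 2.29 to 16.8 and 33.0 to 98.2 CPM, with Ppbp and Cdh5 at 0 in all libraries and most counts from Itga2b and Pecam1. Stromal markers were at 0.102 to 2.72, 0.981 to 4.23 and 0.580 to 5.89 CPM. The 6 stem cell markers summed to 18859 to 22453 CPM in controls, 12685 to 18535 on KO day 3 and 3199 to 8613 on KO day 4. Within each KO group this sum was lower in the libraries with more granule transcripts. Most of the sum was Olfm4, with 482970 of 535326 counts on KO day 3 and 66605 of 75760 on KO day 4. Ascl2 did not follow that order in either KO group (153, 90.4 and 82.4 CPM on KO day 3), nor did Lgr5 on KO day 4 or Smoc2 on KO day 3.

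**Figure D3:**
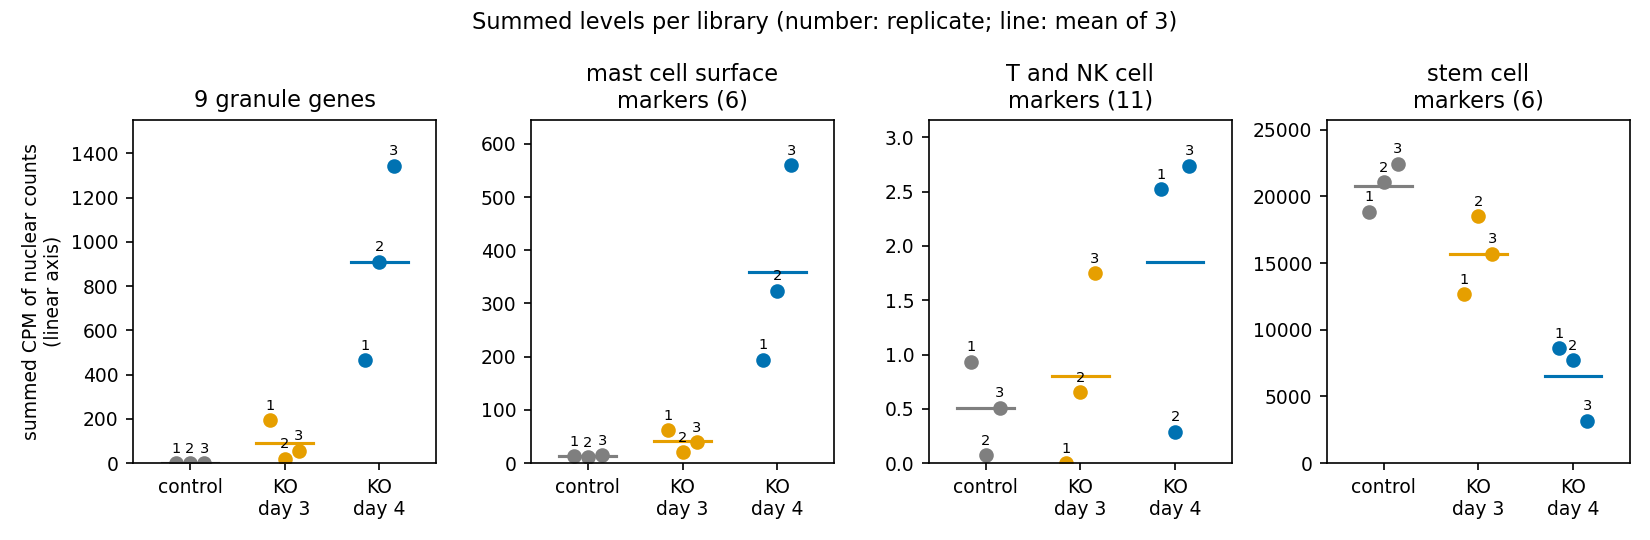
Summed CPM of nuclear counts per library (linear axes) for the 9 granule genes, the mast cell surface markers, the T and NK cell markers and the stem cell markers; points are libraries numbered by replicate and lines are means of 3. The granule genes and the mast cell markers are highest in KO day 4 replicate 3, where the stem cell marker sum, most of it Olfm4, is lowest.

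Among 9309 other genes with a symbol and a mean of at least 5 CPM, the 8 whose log2(CPM + 0.5) followed the summed members most closely over the 9 libraries were Csf2rb2 (Pearson r = 0.990), Il1rl1 (0.990), Fcer1a (0.988), Ifitm1 (0.981), Itga2b (0.977), Cyp11a1 (0.973), Alox5 (0.969) and Lilrb4a (0.969). The points share the 3 groups and their depth, so these values are a description of likeness and have no p. Csf2rb2 encodes a receptor chain for interleukin-3, Il1rl1 the receptor for interleukin-33, and Alox5 the enzyme that starts leukotriene synthesis. Csf2rb2 had 0, 2 and 0 counts in controls, 129, 29 and 105 on KO day 3 and 246, 365 and 432 on KO day 4; it has a near-identical neighbour, Csf2rb, so its own counts are uncertain. Cyp11a1, a steroid-synthesising enzyme, had 0, 0 and 3, then 99, 24 and 32, then 113, 172 and 209 counts.

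Genes that build, load, process and inhibit the granule contents, related proteases, substrates and genomic neighbours of the members were examined in 7 further lists, 141 genes of which 81 passed the filter on low counts. Calls are those of edgeR's quasi-likelihood test with a Benjamini-Hochberg adjusted p under 0.05 over all 13405 tested genes; fold changes are on the TMM scale, and levels are CPM of nuclear counts as before. On KO day 4 against control, 18 of the 81 were higher and 13 lower, which is 38.3% called against 22.5% of all tested genes (11.1% higher and 11.5% lower). On KO day 3, 1 of the 81 (Ext2) was called, as lower, with 20 at an unadjusted p under 0.05 and 12 called by DESeq2, against 0.44% of all genes (0.142% higher and 0.298% lower). Between KO day 4 and KO day 3, 14 were higher and 8 lower, 27.2% against 12.5% of all genes (6.52% higher and 6.03% lower). The lists were drawn up with earlier results of these data known, so nothing is read from these differences in share. The higher counts also hold Cst7, Unc13d and Nts on KO day 4 against control, which passed the filter only through KO day 4. The KO day 4 count fell to 16, 17 and 18 without control replicate 1, 2 or 3 and to 18 without KO day 4 replicate 2. The count between the KO times fell to 11, 11 and 12 without KO day 3 replicate 2, KO day 4 replicate 2 or KO day 4 replicate 3, and the KO day 3 count was 12 without both libraries that stand apart. The mitochondrial share, 66.9 to 72.1% on KO day 4, moved with every KO day 4 comparison, and its part in them was not tested. With library size alone as the scale, under which the median of all genes shifted by -1.95 on the log2 scale, 4 were higher and 60 lower on KO day 4, so the split of directions depends on the TMM scaling, and changes below are relative to the bulk of genes.

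Of 24 granule proteases related to the members, 14 had no count in any library and 4 passed the filter. Tpsg1, a membrane-anchored tryptase whose gene lies beside Tpsb2, was called on KO day 4, with a level of 6.66 ± 1.48 CPM in controls, 7.31 ± 3.91 on KO day 3 and 20.3 ± 12.3 on KO day 4 (SD, n = 3). Its log2 fold change was 1.86 (SE 0.49 and edgeR adjusted p = 0.019), and it was -0.078 with library size alone. The call was lost without control replicate 1, 2 or 3 (adjusted p = 0.061, 0.051 and 0.077) or KO day 4 replicate 3 (0.067). Chosen after their values were seen, Prss34, a protease of basophils and immature mast cells, had no counts in controls, 0, 1 and 2 on KO day 3 and 8, 9 and 11 on KO day 4, and cathepsin G (Ctsg) had 0, 2 and 9 counts on KO day 4. Neither passed the filter on low counts.

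Of 27 genes that build and sulphate the chains carried by serglycin, 25 were tested: 5 were higher and 3 lower on KO day 4, and their median log2 fold change was 0.06 against -0.06 for all genes. Papss2, which makes the sulphate donor PAPS, rose from 2.24 ± 0.930 to 12.8 ± 5.17 CPM (log2 fold change 2.77, SE 0.53 and edgeR adjusted p = 0.0047). Chst15, the sulphotransferase that makes the disulphated chondroitin of mast cells, rose from 2.10 ± 0.881 to 9.38 ± 3.16 CPM (2.41, SE 0.53, adjusted p = 0.0094). Ext2, a subunit of the polymerase of heparan sulphate and heparin, fell from 90.9 ± 9.88 to 39.0 ± 6.65 on KO day 3 (log2 fold change -1.02, adjusted p = 0.043) and 23.2 ± 2.65 CPM on KO day 4 (-1.69, SE 0.19, adjusted p = 0.00044), and Extl2 fell on KO day 4 (-2.01, SE 0.42, adjusted p = 0.0070). The other higher genes were Ndst2, the sulphotransferase required for heparin, at 1.62, Hs3st1 at 1.47 and the sulphatase Sulf2 at 1.64, and the other lower one was the PAPS transporter Slc35b2 at -0.57; these are named after their values were seen. The calls of Papss2 and Chst15 were lost with library size alone (adjusted p = 0.15 and 0.41). The call of Ext2 on KO day 3 was lost without any 1 library except KO day 4 replicate 3, with adjusted p from 0.050 to 0.23.

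Of 7 genes that process pro-enzymes of the granule or restrain those proteases, 6 were tested, with 1 higher and 2 lower on KO day 4; the median log2 fold change was 0.48. Cst7, an inhibitor of the cathepsins that activate granule proteases, had no counts in controls, 8, 4 and 5 on KO day 3 and 14, 16 and 15 on KO day 4. It was at least 50.7-fold higher on KO day 4 than the floor of 3 counts over the controls (edgeR adjusted p = 0.0028). Cst7 passed the filter on low counts only through KO day 4, where it was high, so its call is a description. Ctss, the cysteine protease cathepsin S, fell from 60.0 ± 5.11 to 8.08 ± 4.48 CPM (log2 fold change -2.58, SE 0.36, adjusted p = 0.0011), and Cst3, the secreted inhibitor cystatin C, fell by 0.64 on the log2 scale (adjusted p = 0.048), a call that was lost with RLE size factors (0.067) and without any 1 control, KO day 3 replicate 2 or any 1 KO day 4 library, with adjusted p from 0.052 to 0.15. Ctsc, the dipeptidase that activates chymases and granzymes, was at 49.6 ± 6.37 CPM in controls and 60.5 ± 11.7 CPM on KO day 4 (log2 fold change 0.56, adjusted p = 0.10).

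Of 17 protease inhibitors, 9 were tested, with 1 higher and 3 lower on KO day 4 and a median of -0.68. Serpinb6a, an intracellular inhibitor of serine proteases such as cathepsin G, rose from 75.7 ± 16.1 to 129.6 ± 24.1 CPM (log2 fold change 1.03, SE 0.26 and edgeR adjusted p = 0.016), but was at -0.85 with library size alone. Tfpi, an inhibitor of the clotting cascade, fell from 53.3 ± 4.55 to 13.4 ± 2.50 CPM (-1.71, SE 0.36, adjusted p = 0.0076). Spint1 and Spint2, membrane inhibitors of the epithelial proteases matriptase and hepsin, fell by 0.81 and 0.68 on the log2 scale (adjusted p = 0.019 and 0.034). Serpinb6a lost its call without control replicate 2 or 3 (adjusted p = 0.072 and 0.062) and Spint1 without control replicate 1 or 3 or KO day 4 replicate 1 (0.064, 0.069 and 0.055). Spint2 lost it without control replicate 1 or 2, KO day 3 replicate 2, or KO day 4 replicate 2 or 3, with adjusted p from 0.053 to 0.12. Serpinb9, the intracellular inhibitor of granzyme B, had 51, 56 and 37 counts in controls, 1, 4 and 4 on KO day 3 and 0, 3 and 3 on KO day 4 (log2 fold change on KO day 4 -2.38, adjusted p = 0.088) and was named after its values were seen.

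Of 14 genes of histamine synthesis, amine loading and granule release, 12 were tested, with 4 higher and 1 lower on KO day 4 and a median of 0.80. Slc18a2, the transporter that loads amines such as histamine into granules, had 4, 5 and 0 counts in controls, 31, 13 and 45 on KO day 3 and 150, 165 and 188 on KO day 4. It rose from 0.225 ± 0.197 to 51.0 ± 21.2 CPM on KO day 4 (log2 fold change 7.89 with an SE of 0.75 and edgeR adjusted p = 0.00019). Unc13d, which primes granules for fusion, had 3, 0 and 4 counts in controls, 1, 0 and 3 on KO day 3 and 24, 20 and 19 on KO day 4 (log2 fold change 5.07, SE 1.08, adjusted p = 0.0077). Unc13d passed the filter on low counts only through KO day 4, and Slc18a2 only through KO libraries, so these 2 calls are a description. Vamp8, a fusion protein of mast cell granules and of epithelial secretion, fell from 94.4 ± 9.36 to 35.1 ± 1.81 CPM (-1.16, SE 0.23, adjusted p = 0.0055). Rab27b, a granule-docking GTPase, rose by a log2 fold change of 1.13 (SE 0.27, adjusted p = 0.013), was at -0.79 with library size alone, and lost its call without control replicate 1 or 2 (adjusted p = 0.053 and 0.058). The fourth higher gene, the fusion protein gene Stx3, was at 0.92 and is named after its value was seen. Per 100 Cpa3 counts, Slc18a2 had 6.81, 20.3 and 15.9 counts on KO day 3 and 22.1, 15.3 and 15.1 on KO day 4, lowest in KO day 3 replicate 1. Hdc, the enzyme that makes histamine, had 0, 4 and 0 counts in controls, 0, 1 and 1 on KO day 3 and 0, 3 and 2 on KO day 4, and did not pass the filter.

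Of 13 genes listed for described substrates of chymase, tryptase and granzyme B at the gut barrier or, for Nts, of Cpa3, 12 were tested. On KO day 4, 3 were higher and 3 lower, with a median of -0.42. These are RNA levels, and cleavage of the proteins was not measured. Cldn4, a tight junction claudin, rose from 23.3 ± 7.21 to 98.8 ± 34.8 CPM (log2 fold change 2.33, SE 0.37 and edgeR adjusted p = 0.0018), and Tjp1, a tight junction scaffold, rose from 30.5 ± 6.72 to 105 ± 16.7 CPM (2.06, SE 0.28, adjusted p = 0.0010). Both calls were lost with library size alone (adjusted p = 0.20 and 0.66). Cdh1, E-cadherin, fell from 787 ± 36.0 to 418 ± 101 CPM (-0.64, SE 0.18, adjusted p = 0.026). The call of Cdh1 was lost without any 1 control or without KO day 4 replicate 2 or 3, with adjusted p from 0.053 to 0.077. Nts, the peptide neurotensin that Cpa3 is known to degrade, had 13, 0 and 4 counts in controls, none on KO day 3 and 12, 46 and 49 on KO day 4 (log2 fold change 4.81, SE 1.20, adjusted p = 0.020). The call of Nts was lost without control replicate 3 (0.074) or KO day 4 replicate 2 or 3 (0.057 and 0.058). Nts passed the filter on low counts only through KO day 4, where it was high, so its call is a description. The other lower genes, named after their values were seen, were the endothelin gene Edn1 at -2.04 and the claudin gene Cldn3 at -0.54.

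**Figure D4:**
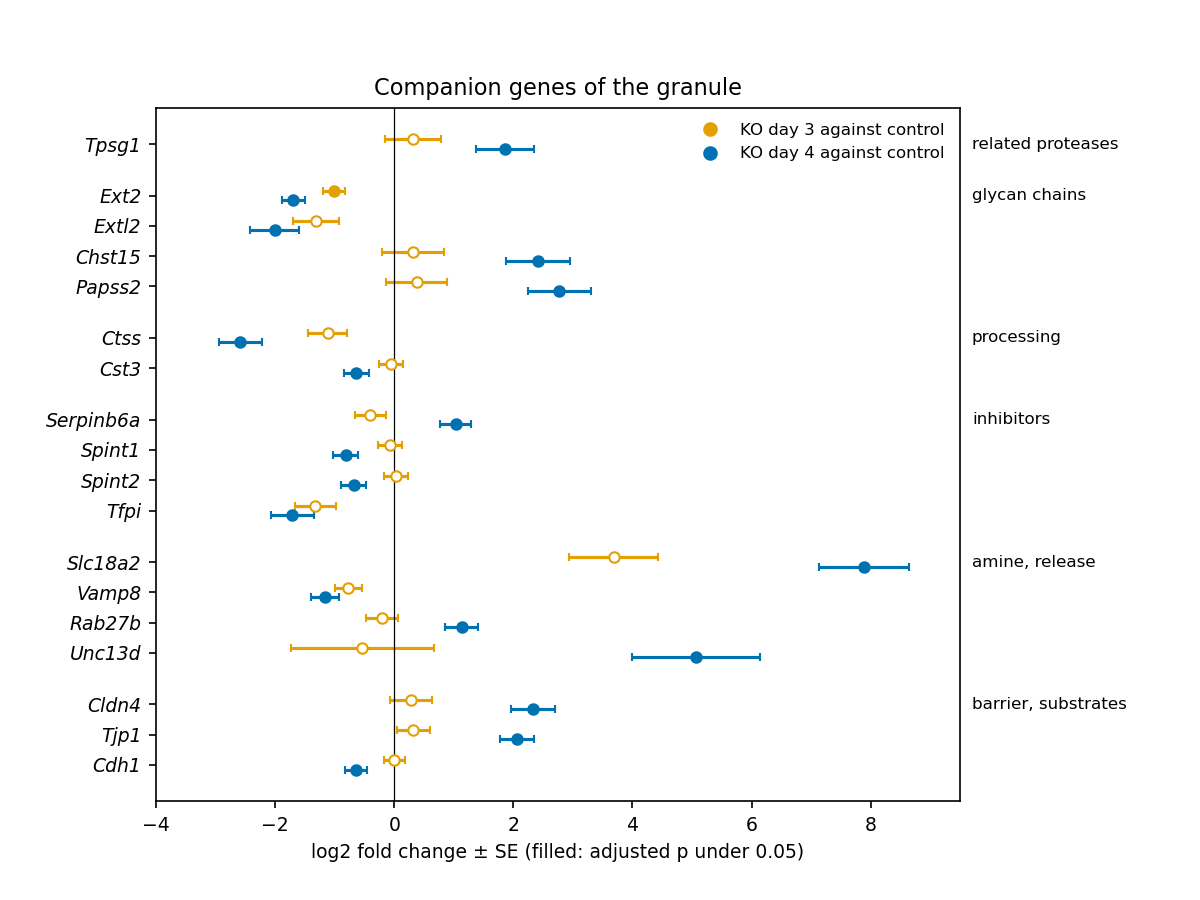
Log2 fold change against control from edgeR for the named companion genes, by list, on KO day 3 and KO day 4. Bars are a standard error taken as the size of the fold change divided by the square root of the test's F. Filled points have an adjusted p under 0.05, and Cst7 and Nts are not drawn because a group had 0 counts. Slc18a2 lies farthest to the right at both times; Tpsg1, Serpinb6a and Rab27b, right of 0 on KO day 4, lie at -0.078, -0.85 and -0.79 with library size alone.

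Few genes near the members had enough counts to be tested. Of the 54 other annotated genes within 100 kb of a member, 26 had no count in any library and 15 were tested. On KO day 4, 4 were higher and 1 lower, the median log2 fold change was 0.25, and on KO day 3 edgeR called 0, with 3 at an unadjusted p under 0.05 and 1 called by DESeq2. The higher ones included Tpsg1, Baiap3 (3.55, SE 1.05 and edgeR adjusted p = 0.032) and Ddx21 (0.66, SE 0.18, adjusted p = 0.026); with library size alone Ddx21 was at -1.22. Baiap3 had 6, 12 and 4 counts in controls and 25, 6 and 27 on KO day 4, and lost its call without any 1 control or without KO day 4 replicate 1 or 3, with adjusted p from 0.051 to 0.11, and with library size alone (log2 fold change 1.62, 0.15). Ddx21 lost its call without any 1 control or without KO day 4 replicate 1 or 2, with adjusted p from 0.072 to 0.095. With no filter on low counts the call of Ddx21 was also lost (0.061). The lower neighbour was Hkdc1, a hexokinase family gene near Srgn, at -1.34, named after its value was seen.

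Reads that match several family members could be shared out in ways the deposited counts do not show. The longest identical run between transcripts was 100 bases for Mcpt4 and Cma2, and Cma2 had 0 counts in every library. It was 91 bases for Cma1 and the gene model Gm48934, 49 bases for Mcpt1 and Mcpt2, and 49 bases for Gzmb and Gzmc.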

How the data were processed

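Per the labels' protocols, mRNA libraries were made from DNase-treated total RNA of sorted cells. The deposited table holds raw counts of reads for each Ensembl gene in 9 libraries, with 6 empty trailing columns. The aligner HISAT2 2.0.4 and the build GRCm38 are named in the submitters' processing notes. Strandedness, the program that counted and its gene annotation are not given in the sources used here. Of 57180 rows, 51933 were named through GENCODE release M21 and 5247 had no symbol. Members and lists were chosen with earlier results of these data known.

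Nuclear counts leave out mitochondrial genes and 11 nuclear copies of them (at least 95% identity over 80% of the shorter sequence). CPM, pooled ratios with exact binomial 95% intervals and floors of 3 counts were computed from the deposited counts. Companion genes were tested with edgeR 4.0.16 in R 4.3.3 (filterByExpr defaults, TMM, quasi-likelihood F-test, all 9 libraries in 1 fit, Benjamini-Hochberg adjustment over 13405 genes, threshold 0.05). The filter needs a sum of 15 counts and the CPM that equals 10 counts at the median library size. That CPM is needed only in as many libraries as the smallest group holds, so a gene can pass on 1 group alone. The procedure was tested on simulated data for KO day 4 against control only, with 50 changed genes at each fold. It recovered 16% of 2-fold, 80% of 4-fold, 90% of 8-fold and 96% of 16-fold changes, with 5 false calls. Most 2-fold changes were thus missed. Each SE was computed as the size of the log2 fold change divided by the square root of the F of its test. TMM factors were 1.44 to 1.83 in controls, 1.22 to 1.40 on KO day 3 and 0.40 to 0.50 on KO day 4. Library pairs within a group differed by more than sampling noise (chi-square divided by its degrees of freedom 13.8 to 96.9), so each was counted as 1 replicate.

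Named genes are the 9 members, up to 4 called genes with the smallest adjusted p on KO day 4 in each list, and the 8 genes most like the summed members; 1 gene that meets this rule is not reported here. The alternatives tried were RLE size factors, library size alone, no filter, DESeq2 1.42.0, the replicate number as a block, each library left out, and both libraries that stand apart left out.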

Additional observations from a re-analysis of the deposited data

Results flagged for a closer look

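For 14 of the 22 named companion genes the effect on KO day 4 differed from that on KO day 3 by the test of the difference itself, KO day 4 against KO day 3 in the same edgeR fit (adjusted p from 0.0031 to 0.042), where 12.5% of all tested genes were called. The 22 were named for a small adjusted p on KO day 4 against control, and this test uses the same KO day 4 libraries, so it is not independent of that choice and the count is a description. Both effects share the control libraries, and the difference between the 2 KO groups does not use them except for the estimate of the spread. The difference is given as log2(KO day 4 / KO day 3). It was positive for Slc18a2, the amine transporter (4.21), Unc13d, the priming factor (5.61), Papss2 (2.40) and Chst15 (2.10), both of chain sulphation, Cldn4 (2.05) and Tjp1 (1.74), both of tight junctions, Serpinb6a (1.43) and Rab27b (1.33). It was also positive for Nts, where the fitted value of 9.86 rests on 0 counts on KO day 3 and is no measure of size. Unc13d and Nts passed the filter on low counts only through KO day 4, so their calls here are a description. The difference was negative for Ctss (-1.47), Spint1 (-0.74), Spint2 (-0.71), Ext2 (-0.68) and Cdh1 (-0.64).

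With library size alone Serpinb6a and Rab27b changed sign, to -0.13 and -0.20, and the calls of Papss2, Chst15, Cldn4 and Tjp1 were lost (adjusted p = 0.18, 0.38, 0.19 and 0.50). Without KO day 3 replicate 2, Papss2 was at an adjusted p of 0.051. Chst15 lost its call without any 1 KO day 3 library or without KO day 4 replicate 1 or 3 (0.055 to 0.082), and Ctss without KO day 3 replicate 1 or KO day 4 replicate 2 or 3 (0.056, 0.077 and 0.067). Ext2 and Cdh1 lost theirs without any 1 control, KO day 3 replicate 2 or 3, or KO day 4 replicate 2 or 3 (0.069 to 0.13 and 0.055 to 0.099). Spint1 lost its call without any 1 library except KO day 3 replicate 3 (0.054 to 0.12) and with RLE size factors (0.051), and Spint2 without control replicate 2, KO day 3 replicate 1 or 2, or any 1 KO day 4 library (0.057 to 0.12). Without both libraries that stand apart, Chst15, Ctss, Spint1 and Spint2 were at adjusted p = 0.061, 0.088, 0.11 and 0.18.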

How the results depend on the processing

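Counts of called genes on KO day 3 against control depended on the processing. Of all genes, 59 were called, against 518 with library size alone, 317 with no filter, 876 with DESeq2, 646 without both libraries that stand apart, and 0 to 345 with 1 library left out (0 in edgeR without control replicate 2 or KO day 3 replicate 3, where 1333 and 1747 genes had an unadjusted p under 0.05). For the companion lists the count was 1, against 12, 3, 12 and 12 under those settings and 0 to 7 with 1 library left out. On KO day 4 against control, 3021 genes and 31 companion genes were called, 11057 and 64 with library size alone (288 higher and 10769 lower of all genes, against 1484 and 1537), and 1588 to 3839 and 16 to 35 with 1 library left out. For KO day 4 against KO day 3 they were 1682 and 22, with 9508 and 54 by library size alone, 2879 and 34 by DESeq2, and 648 to 1802 and 11 to 23 with 1 library left out.

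Replicate numbers showed no clear pairing of the samples. Deviations of same-numbered libraries correlated at -0.05 to 0.13 and those of differently numbered ones at -0.087 to 0.085. Between control and KO day 3, however, the same-numbered pairs (0.068, 0.027 and 0.13) lay above all others (-0.087 to 0.012), so pairing is not settled there. With the replicate block, 9, 2680 and 1537 genes and 0, 28 and 18 companion genes were called in the 3 comparisons; at the 0, 17 companion genes had an unadjusted edgeR p under 0.05. The block ended 6 calls of named genes: Nts (5.02, adjusted p = 0.067) and Baiap3 (3.53, 0.067) on KO day 4 against control, Ext2 on KO day 3 (-1.02, 0.098), and Ext2 (-0.67, 0.065), Chst15 (2.09, 0.056) and Spint1 (-0.73, 0.070) between the KO times.

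Signs turned with library size alone for Tpsg1 (-0.078), Serpinb6a (-0.85), Rab27b (-0.79) and Ddx21 (-1.22) on KO day 4 against control. Against KO day 3 they turned for Serpinb6a (-0.13), Rab27b (-0.20) and Ddx21 (-1.24). Over the companion genes named here and alternatives, 841 values stayed on the same side of the threshold, 108 lost a call, 34 gained one and 7 turned sign with a call. Among the 841 were 24 uncalled values of 10 genes whose sign turned, on KO day 3 against control or between the KO times. The summed member level was 223 CPM of all counts on KO day 4; with 1 library left out it was 0.320 to 0.607 CPM in controls, 38.0 to 125 on KO day 3 and 688 to 1128 on KO day 4. The share of Cma1, Cpa3 and Tpsb2 was 86.3% and 86.6% on raw counts on KO day 3 and KO day 4, and 87.7 to 88.6% and 88.4 to 88.6% per kilobase with 1 library left out. By definition, the 223 CPM counts mitochondrial reads in its denominator, and the shares on raw counts leave out exon length. The cause of the other shifts was not tested. The 18 member counts in the controls limit the precision of every ratio to control.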
